A study of Mus musculus with 20 samples.

Results

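The interleukin-2 (IL-2) and interleukin-7 (IL-7) receptor axis was followed as 8 genes among the 24862 gene symbols of the count tables. They were chosen by name: Il2, the cytokine; Il2ra, Il2rb and Il2rg, the alpha, beta and common gamma chains of the IL-2 receptor; Il7r, the alpha chain of the IL-7 receptor; Stat5a and Stat5b, which transmit the signal; and Cish, a target and feedback inhibitor of it. All 8 were found and all 8 passed the filter on low counts in each comparison. The 12 RNA-seq libraries come from C57BL/6 mouse T helper 17 (TH17) cells, the CD4 T cells that make interleukin-17, in 6 groups with 2 replicates each. The first pair of groups set GFP+ TH17 cells sorted from the central nervous system (CNS) against GFP+ TH17 cells sorted from the ileum, with RNA of 50000 cells amplified by a low-input SMART-Seq v4 kit. The labels do not say what drives the GFP. The second pair were TH17(β) cells, cultured with TGF-β1 at 2 ng/ml and IL-6 at 20 ng/ml, that carried Ad-c-Rel, an overexpression construct for the NF-κB subunit c-Rel, or Ad-control. The third pair were TH17(23) cells from miR-21-/- mice or miR-21 control mice, grown in 20 ng/ml each of IL-6, IL-1β and IL-23 and prepared with a stranded total RNA kit. All cultured cells began as naive CD4 T cells and were activated with plate-bound anti-CD3 and with anti-CD28 in the presence of antibodies that block IL-4 and IFN-γ. No added IL-2 or IL-7 is named for any culture in the labels. The labels give neither the ages of the mice nor whether replicates were separate animals or cultures, so each p-value reflects the variation among these libraries, part of which may be technical.

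As background, IL-2 is made by activated T cells and binds a receptor built of Il2ra, which raises its affinity, and of Il2rb and Il2rg, which signal. Il2rg also pairs with the IL-7 receptor alpha chain and with the receptors for IL-4, IL-9, IL-15 and IL-21. Both the IL-2 and the IL-7 receptor activate the kinases JAK1 and JAK3 and the transcription factors STAT5A and STAT5B, which induce Cish and Il2ra. In mouse T cells, IL-2 acting through STAT5 is known to restrain TH17 differentiation, IL-7 is known to keep resting and memory T cells alive, and c-Rel is known as a direct activator of the Il2 and Il2ra genes.

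The genes lie on 6 chromosomes of the mm10 assembly (RefSeq GRCm38.p6). Il2 is at chr3:37120713-37125954, Il2ra at chr2:11642792-11693194, Il2rb at chr15:78479256-78511621, Il2rg at chrX:101264385-101268255, Il7r at chr15:9506159-9529941 and Cish at chr9:107296659-107302784. Stat5b at chr11:100780731-100859004 and Stat5a at chr11:100859351-100885169 are neighbours, with 346 bases between them. Their coding sequences are close copies, so the way the counting treated reads with several alignments can move counts between them. The 3' part of Il2ra overlaps the long noncoding gene Gm39760 in RefSeq, and the labels do not say whether the counting used strand.

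Promoters are shown for Il2 and Il2ra, since c-Rel was raised in one comparison and is known to act at both genes, and for Cish, as the STAT5 target of the set. They come from RefSeq (GRCm38.p6), 5′ to 3′ on the gene's strand, and 7 of the 8 genes matched a promoter entry. Il2 is chr3:37125955-37126204 on the minus strand, Il2ra chr2:11642542-11642791 on the plus strand and Cish chr9:107296409-107296678 on the plus strand. The Il2 and Il2ra stretches are the 250 bases before the annotated start, and the Cish stretch runs on to 20 bases past it. Capitals mark the CD28 response element in Il2, searched with its 3 middle bases free, the NF-κB consensus in Il2ra and the STAT motif TTCNNNGAA in Cish, each searched on both strands.
Il2: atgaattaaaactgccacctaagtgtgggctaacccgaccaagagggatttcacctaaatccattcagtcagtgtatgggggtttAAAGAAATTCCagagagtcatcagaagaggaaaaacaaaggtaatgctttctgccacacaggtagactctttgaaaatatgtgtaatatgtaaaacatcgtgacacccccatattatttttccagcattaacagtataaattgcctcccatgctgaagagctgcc
Il2ra: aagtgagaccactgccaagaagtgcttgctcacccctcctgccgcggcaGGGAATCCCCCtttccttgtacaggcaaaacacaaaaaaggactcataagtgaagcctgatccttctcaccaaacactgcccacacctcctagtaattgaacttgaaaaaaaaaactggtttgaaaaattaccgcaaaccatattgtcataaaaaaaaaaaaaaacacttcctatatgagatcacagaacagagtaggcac
Cish: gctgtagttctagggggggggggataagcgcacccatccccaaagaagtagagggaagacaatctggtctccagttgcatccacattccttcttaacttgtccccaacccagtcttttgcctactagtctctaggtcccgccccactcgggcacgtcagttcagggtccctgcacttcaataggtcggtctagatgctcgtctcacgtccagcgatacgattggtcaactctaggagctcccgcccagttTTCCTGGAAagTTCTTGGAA
The CD28 response element, a site at which c-Rel is known to act in the Il2 gene, began 165 bases before the start of Il2, and 1.43% of 32851 RefSeq promoter windows of the same design held such a match. The NF-κB consensus matched Il2ra at 2 overlapping positions, 201 and 200 bases before its start, and 4.51% of all windows held at least 1 match. The STAT motif matched Cish at 2 positions, against 0.457% of windows with 2 or more and 8.3% with at least 1. Il7r held 1 STAT match, Stat5a 1 NF-κB match, and these letters were not found in the other windows. A match is a description of the sequence and was not measured as binding.

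**Figure D1:**
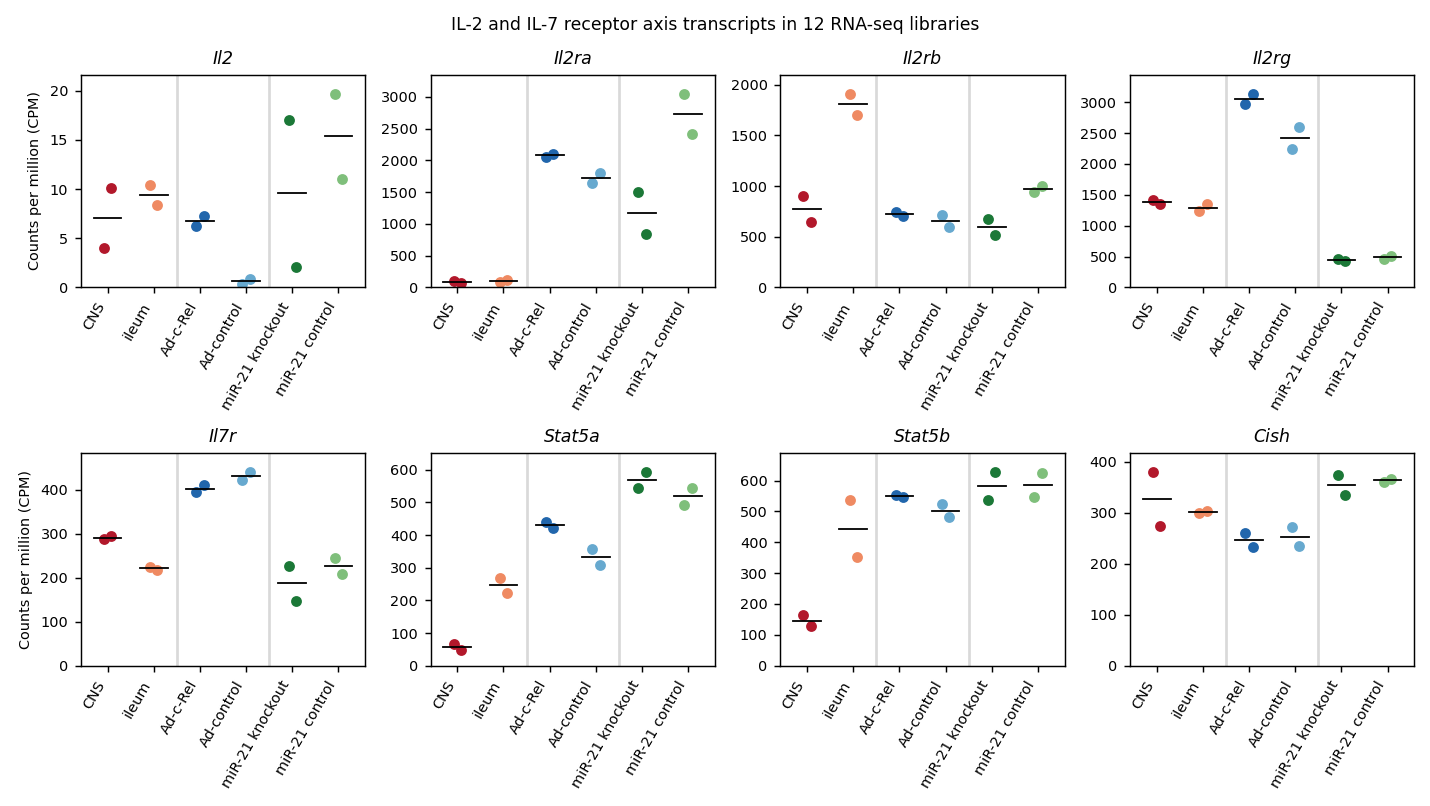
CPM (linear axes from 0) of the 8 genes in each of the 12 libraries (points), with the mean of the 2 replicates of a group (bars). Il2ra sat at 73.2 to 110 CPM in all 4 libraries from tissue and at 840 CPM or more in all 8 cultured libraries, and Il2 in Ad-control cells stayed under 1 CPM.

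Levels are given as CPM, the gene's counts scaled to a common total of gene counts per library, with the SD of 2 replicates. They describe the groups without a test because the 3 pairs differ in cell source. The labels name different library kits for the tissue and miR-21 pairs, and the kit of the Ad pair is not clearly given in them. The miR-21 libraries were also deeper than the others. The cytokine gene Il2 was at 19.7 CPM or less in every library, with a mean of 15.4 ± 6.09 CPM in miR-21 control cells, the highest group, and 0.646 ± 0.363 CPM in Ad-control cells, the lowest. The ranges of neighbouring groups overlapped down to Ad-c-Rel cells at 6.78 ± 0.739 CPM, and Ad-control cells alone stood below all other groups. Behind these levels lay 6 and 18 counts of Il2 in the Ad-control libraries and 67 to 716 counts in the others.

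The receptor chains each had an order of their own. Il2ra, an activation marker of T cells, separated cultures from tissues. It averaged 87.0 ± 19.5 CPM in CNS cells and 100.01 ± 14.5 CPM in ileum cells. In the cultures it averaged 2078 ± 40.1 CPM in Ad-c-Rel and 1725 ± 107 CPM in Ad-control cells, and 1174 ± 473 CPM in miR-21 knockout and 2735 ± 441 CPM in miR-21 control cells. Of neighbours in the order of levels, only CNS and ileum overlapped. Il2rb, which IL-2 shares with IL-15, was ordered otherwise. It averaged 774 ± 178 CPM in CNS cells, against 1806 ± 146 CPM in ileum cells, the highest group. The miR-21 control cells came next at 972 ± 45.1 CPM, and the CNS, Ad-c-Rel, Ad-control and miR-21 knockout groups, at means of 593 to 774 CPM, each overlapped the next. Il2rg was highest in Ad-c-Rel cells at 3052 ± 116 CPM and lowest in miR-21 knockout cells at 438 ± 24.9 CPM, with no overlap between any neighbours. Il7r spanned 2.31-fold between groups, highest in Ad-control cells at 431 ± 12.4 CPM and lowest in miR-21 knockout cells at 187 ± 56.6 CPM. Its miR-21 knockout, ileum and miR-21 control groups, the lowest in that order, each overlapped the next.

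Of the signal transducers, Stat5a had the wider span of group means, 10.1-fold, and Stat5b spanned 4.01-fold. Both were lowest in CNS cells, at 56.2 ± 13.6 CPM for Stat5a and 146 ± 24.98 CPM for Stat5b, and neither overlapped there with the next group, ileum. Of the other neighbours, only the miR-21 knockout and control groups overlapped for Stat5a, and all but Ad-c-Rel and Ad-control overlapped for Stat5b. Cish spanned 1.48-fold, highest in miR-21 control cells at 363 ± 2.98 CPM and lowest in Ad-c-Rel cells at 246 ± 18.5 CPM, and all its neighbours overlapped but ileum and Ad-control.

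Facts of the libraries bear on these values. Total gene counts were 32766097 to 36711252 for the miR-21 pair and 15421743 to 19930807 for the other pairs. The second library of each tissue detected fewer genes than the first (11545 against 14224 for CNS, 10771 against 13927 for ileum). The correlation of log2 CPM between replicates, across genes, was 0.945 for CNS, 0.935 for ileum and 0.992 to 0.997 for cultured cells. Reads with several alignments were listed at 0 in the miR-21 libraries and at 2.25% to 3.53% of the table total in the others. Rel, the gene of c-Rel, had 57.5 and 61.9 CPM in Ad-c-Rel cells, against 10.8 and 7.02 CPM in Ad-control cells. Mir21a, the precursor gene of miR-21, had 0 counts in both knockout libraries, against 25 and 20 counts in the control libraries, so both manipulated genes differed in the direction of the labels.

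In CNS against ileum TH17 cells, the comparison of the cells of the 2 tissues, 3 of the 8 genes were lower in CNS cells. Il2rb, Stat5a and Stat5b fell, by 2.68-fold, 5.04-fold and 3.51-fold, while none of the 8 genes rose. Il2, Il2ra, Il2rg, Il7r and Cish did not pass the test. The 3 of 8 genes called lower stand beside 5.66% of the 12038 genes tested that were called lower at an adjusted p of 0.05, 9.66% in either direction.

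Il2rb, the signalling beta chain, had 900.4 and 649 CPM in CNS libraries, against 1908 and 1703 CPM in ileum libraries. Both CNS libraries lay below both ileum libraries, and the log2 fold change was -1.42 ± 0.183 (SE, edgeR's quasi-likelihood test, adjusted p = 0.0111). Stat5a had 65.8 and 46.6 CPM in CNS, against 269 and 222 CPM in ileum, a log2 fold change of -2.33 ± 0.254 (edgeR adjusted p = 0.00655). Stat5b had 164 and 128 CPM in CNS, against 537 and 351 CPM in ileum, a log2 fold change of -1.81 ± 0.270 (edgeR adjusted p = 0.0167). In each of these genes the CNS and ileum ranges did not overlap, and each call held when any single library was left out.

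The ligand and the other chains differed by less than the test could call. Il2 had 3.98 and 10.1 CPM in CNS, against 10.5 and 8.33 CPM in ileum, with overlapping ranges and a 95% interval of the log2 difference from -2.97 to 1.76. Il2ra had 101 and 73.2 CPM in CNS, against 89.8 and 110 CPM in ileum, a log2 fold change of -0.40 with an interval from -1.05 to 0.25. For this activation marker the CNS and ileum ranges overlapped too. Il2rg had 1420 and 1349 CPM in CNS, against 1232 and 1346 CPM in ileum, with an interval from -0.36 to 0.17 on the fitted scale. Il7r, which resting and memory T cells keep, had 287 and 295 CPM in CNS, against 225 and 218 CPM in ileum, and its log2 fold change was 0.19 ± 0.149 (edgeR adjusted p = 0.522). Cish had 379 and 273 CPM in CNS, against 299.9 and 302 CPM in ileum, so the 2 CNS libraries bracketed the ileum libraries. The CPM of Il2rg and Il7r did not overlap between the tissues, as was the case for 60.5% of all genes tested. The fitted log2 fold changes of Il2rg and Cish, -0.10 and -0.09, came out positive at 0.10 and 0.12 when libraries were scaled by library size only, which moved the median of all genes by 0.202.

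Markers of other cells differed between the tissues as well. Over all genes tested, 4% were called higher in CNS and 5.66% lower. All 16 myeloid and microglial markers tested were called higher in CNS, with summed levels of 21309 and 21895 CPM in CNS libraries, against 2474 and 2619 CPM in ileum libraries. The 14 T cell identity genes summed to 6121 and 6178 CPM in CNS, against 7948 and 7557 CPM in ileum, and 5 of them were called lower. Of the neutrophil markers 4 of 5 tested were called higher in CNS (231 and 236 CPM summed, against 0.615 and 0.117 CPM in ileum). Of the B and plasma cell markers 5 of 7 tested were called lower (21.0 and 16.7 CPM summed in CNS, against 3800.4 and 3723 CPM in ileum). The part of these cells in the results for Il2rb, Stat5a and Stat5b was not tested directly, and in bulk RNA fewer cells of a type and less RNA per cell cannot be told apart. When the libraries were scaled to the T cell identity genes, which moved the median of all genes by 0.536, Il2rb, Stat5a and Stat5b were still called lower (log2 fold changes of -0.88, -1.79 and -1.26, edgeR adjusted p = 0.0364, 0.0119 and 0.0309). Under that scaling Il7r was called higher in CNS (0.73, edgeR adjusted p = 0.0359), beside 11.9% of all genes called in either direction, and Il2ra, Il2rg and Cish had positive values that did not pass the test.

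**Figure D2:**
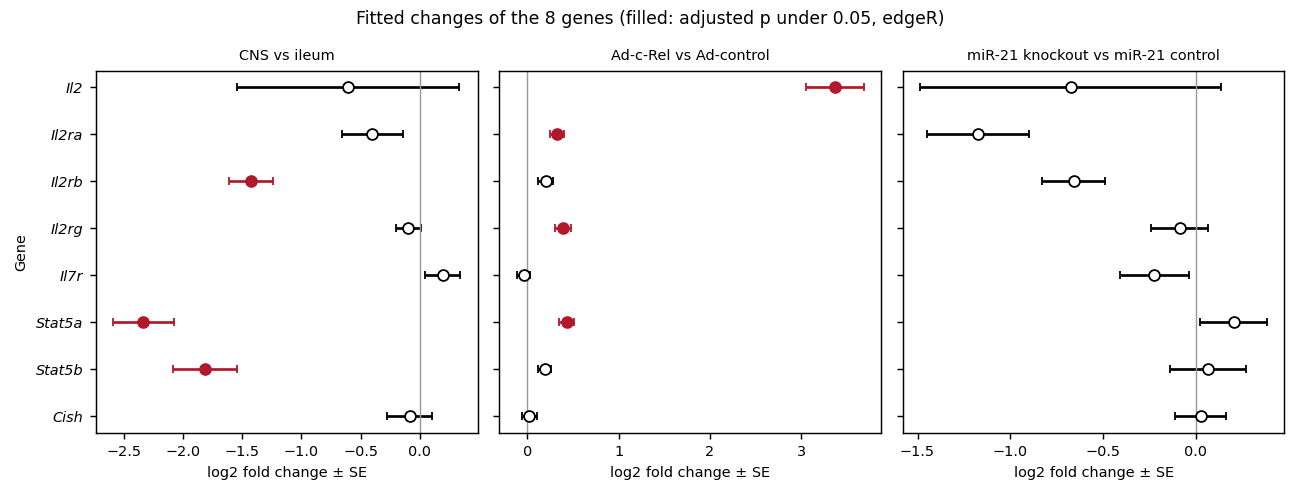
Fitted log2 fold changes (horizontal axis, ± SE from edgeR) of the 8 genes in CNS against ileum, Ad-c-Rel against Ad-control and miR-21 knockout against miR-21 control cells, each panel with its own axis range. Filled points passed an adjusted p of 0.05: Il2rb, Stat5a and Stat5b lower in CNS, and Il2, Il2ra, Il2rg and Stat5a higher in Ad-c-Rel cells.

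Around the 8 genes, genes known to switch Il2 on or off were often lower in CNS cells. Of 12 such regulators, 8 were called lower and 1 higher, with a median log2 fold change of -1.36 against 0.08 over all genes tested. Beside this and the other list counts of this comparison, 5.66% of all genes tested were called lower and 4% higher. The T cell identity genes had a median of -0.53. The calls of Nfkb1 and Jun were lost with scaling to T cell identity genes (edgeR adjusted p = 0.157 and 0.562). They were also lost with library size only (edgeR adjusted p = 0.0579 and 0.0802) and when some single libraries were left out. Without CNS replicate 1 the log2 fold changes of Nfkb1 and Jun were -0.96 and -0.59, against -0.99 and -0.66 with all 4 libraries. Crem, a cAMP-responsive factor that represses Il2, had 82.5 and 96.1 CPM in CNS, against 2960 and 3170 CPM in ileum. Ikzf3, the Aiolos repressor, had 51.8 and 65.8 CPM in CNS, against 714 and 738 CPM in ileum. Zeb1, another repressor of Il2, and Rel, an activator, had log2 fold changes of -3.10 and -1.79. The called genes thus held both activators and repressors of Il2, and the exception was Fos, an AP-1 subunit, at 0.79, which a fit over all 12 libraries did not call (edgeR adjusted p = 0.108).

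Among the wider common gamma chain family, 3 of 7 tested genes were called lower in CNS and 0 higher. Il4ra, the IL-4 receptor, had a log2 fold change of -1.57, Il21r, the IL-21 receptor, -2.52, and the cytokine gene Il21 -2.69. The call of Il21 was lost without CNS replicate 1 (edgeR adjusted p = 0.0811) with scaling to T cell identity genes (0.0701) and with library size only (0.0504). Of 10 signal transducers, Stat3, which carries the IL-6, IL-21 and IL-23 signals, and Pik3r1, a PI3-kinase subunit, were called lower at -1.71 and -2.12. Of 6 negative regulators, the phosphatase gene Ptpn6 was called higher at 2.64 and Ptpn2 lower at -1.44, a call lost with scaling to T cell identity genes (edgeR adjusted p = 0.0547). Ptpn6 is also expressed in myeloid cells, whose markers were higher in CNS.

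Genes known to be induced by IL-2 and STAT5 included 5 called lower and 1 called higher of 17 tested, with a median of -0.41. Ctla4, a checkpoint receptor, had 429 and 360.1 CPM in CNS, against 4692 and 4997 CPM in ileum. Gzmb, a cytotoxic granule protease, had 76.4 and 111 CPM in CNS, against 1011 and 1107 CPM in ileum. Tnfrsf4, the costimulatory receptor OX40, had a log2 fold change of -1.18, and the exception was Osm, a cytokine gene also expressed by myeloid cells, at 3.64. The regulatory T cell list, which holds Ctla4, summed to 714 and 645 CPM in CNS, against 5054 and 5361 CPM in ileum, while its defining factor Foxp3 had 32.5 and 18.8 CPM in CNS, against 18.5 and 31.3 CPM in ileum. Under DESeq2 the STAT5-induced list had 8 genes called lower and 3 higher, beside 15.1% of all genes called lower and 14.4% higher. Of 4 genes known to be lowered by IL-2, 0 were called by edgeR, 3 were lower at an unadjusted p under 0.05, beside 13% of all genes, and DESeq2 called 3 lower, with an edgeR median of -0.95.

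The regulators of Il7r and other targets of FOXO1, the factor that maintains Il7r, had 5 of 10 genes called lower and 0 higher, with a median of -0.50. Foxo1 itself had 182 and 127 CPM in CNS, against 780.4 and 705 CPM in ileum. Foxp1, an antagonist of FOXO1 at Il7r, and Ets1, a T cell transcription factor, had log2 fold changes of -2.04 and -1.81. Ccr7, the lymph node homing receptor, had a log2 fold change of -1.83. Il7r itself was not called lower in any of the settings tried. Leaving out 1 library moved some values in these lists. Without ileum replicate 1, Pik3cd, Akt1 and Ikzf1 had log2 fold changes of 1.35, 1.33 and 1.25, against 1.09, 0.70 and 0.77 with all 4 libraries. Lta and Il6ra then had 11.2 and 12.1, against 5.69 and 2.31, and the median of all genes moved by 0.0761. Without ileum replicate 2, Il15ra had 4.30, against 1.35, and Lta 4.70. Without CNS replicate 1, Jak1, Il6st and Nfatc2 had -1.03, -4.20 and -2.04, against -0.57, -2.30 and -1.29. Without CNS replicate 2, Myc had -2.01, against -1.37.

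In Ad-c-Rel against Ad-control TH17(β) cells, the comparison that asks what extra c-Rel changes, the ligand gene moved most. Il2 rose 10.3-fold, and Il2ra, Il2rg and Stat5a rose 1.25-fold, 1.31-fold and 1.35-fold. None of the 8 genes was called lower, and Il2rb, Il7r, Stat5b and Cish did not pass the test. The 4 of 8 genes called higher stand beside 8.16% of the 11711 genes tested that were called higher, and 14.3% in either direction.

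Il2 had 110 and 120 counts, or 6.26 and 7.30 CPM, in Ad-c-Rel libraries, against 6 and 18 counts, or 0.389 and 0.903 CPM, in Ad-control libraries. Every Ad-c-Rel library lay above every Ad-control library, and the log2 fold change was 3.37 ± 0.313 (edgeR adjusted p = 2.61e-06). Its size rests on the few Ad-control counts: it was 4.17 without Ad-control replicate 2 and 2.94 without Ad-control replicate 1, called in both. The Il2 promoter printed above holds a CD28 response element match, and whether c-Rel acted there in these cells was not tested.

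Il2ra had 2050 and 2106 CPM in Ad-c-Rel cells, against 1649 and 1801 CPM in Ad-control cells, and the ranges did not overlap. Its log2 fold change was 0.33 ± 0.0784 (edgeR adjusted p = 0.0112), and the call was lost when Ad-control replicate 1 was left out (edgeR adjusted p = 0.0504) and when Ad-c-Rel replicate 2 was (0.0986). Il2rg, the common gamma chain, had 2969 and 3134 CPM in Ad-c-Rel cells, against 2237 and 2606 CPM in Ad-control cells, a log2 fold change of 0.39 ± 0.0876 (edgeR adjusted p = 0.00729). Il2rb had 739 and 703 CPM in Ad-c-Rel cells, against 711 and 596 CPM in Ad-control cells. Its ranges overlapped, the log2 fold change was 0.20 ± 0.0825 (edgeR adjusted p = 0.117), and it was called without Ad-control replicate 1 (0.31, edgeR adjusted p = 0.0235).

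Il7r differed little, with 395 and 410.2 CPM in Ad-c-Rel cells, against 423 and 440.1 CPM in Ad-control cells. Its 2 Ad-c-Rel libraries lay below its 2 Ad-control libraries, and the 95% interval of the log2 difference ran from -0.20 to 0.12. Among the transducers, Stat5a had 439 and 421 CPM in Ad-c-Rel cells, against 358 and 308 CPM in Ad-control cells, a log2 fold change of 0.43 ± 0.0795 (edgeR adjusted p = 0.00191). Stat5b had 553 and 546 CPM in Ad-c-Rel cells, against 524 and 480.4 CPM in Ad-control cells, and its log2 fold change of 0.19 did not pass the test (edgeR adjusted p = 0.0996). The CPM of both paralogs did not overlap between the groups, as was the case for 21.4% of all genes tested in the higher and 37.3% in the lower direction, and the test called only Stat5a. Cish, the feedback inhibitor, had 259 and 233 CPM in Ad-c-Rel cells, against 272 and 235 CPM in Ad-control cells, with overlapping ranges and an interval from -0.16 to 0.20.

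Of the IL-2 and STAT5 induced genes, 9 of 17 were called higher in Ad-c-Rel cells and 0 lower, with a median log2 fold change of 0.30 against -0.01 over all genes tested. Beside this and the other list counts of this comparison, 8.16% of all genes tested were called higher and 6.12% lower. Pim2, a survival kinase, had 714 and 707 CPM in Ad-c-Rel cells, against 417 and 406 CPM in Ad-control cells. Ctla4 had 963 and 919.6 CPM in Ad-c-Rel cells, against 568 and 539 CPM in Ad-control cells. Ccnd2, the cyclin D2 gene, and Bcl2l1, the gene of the survival factor BCL-XL, had log2 fold changes of 0.88 and 0.77. Their calls held without each library in turn, and the list count was then 7 to 8. Of the 4 genes known to be lowered by IL-2, Tcf7 and Bcl6, transcription factors of less differentiated and follicular T cells, were called lower at -0.27 and -0.35. Both of those calls were lost when some single libraries were left out, Tcf7 without Ad-control replicate 1 (edgeR adjusted p = 0.0583) and without either Ad-c-Rel library (0.159 and 0.0994), and Bcl6 without the second Ad-control library (0.135) and without the second Ad-c-Rel library (0.111).

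**Figure D3:**
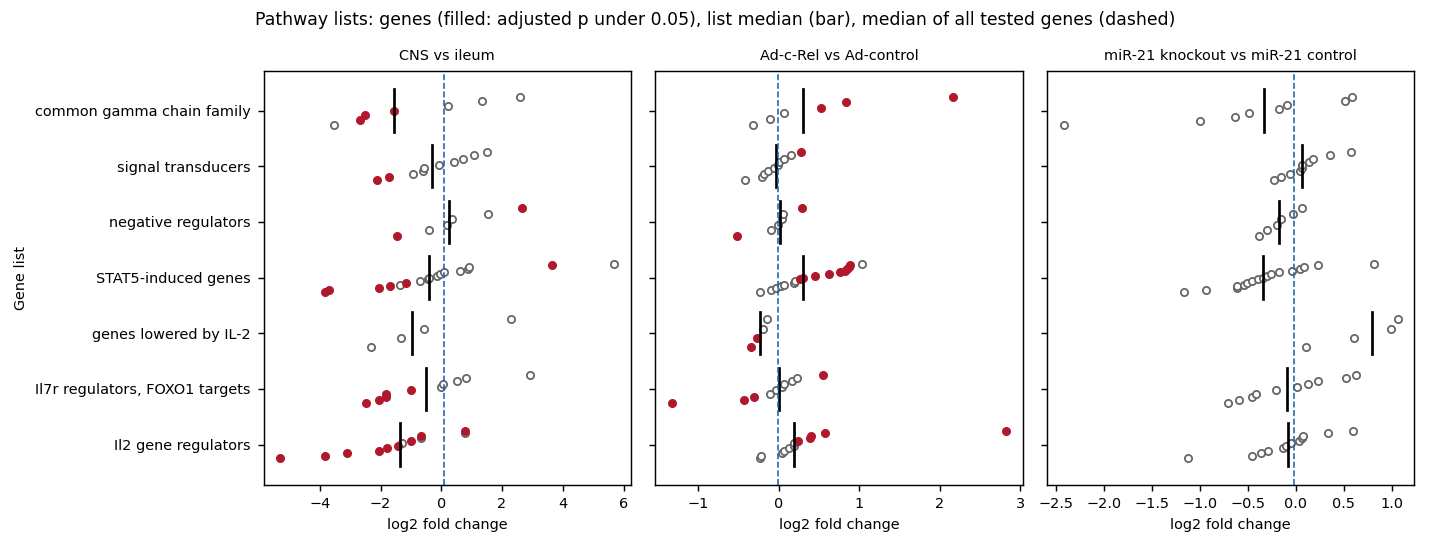
Fitted log2 fold changes (horizontal axis) of the genes in 7 pathway lists, with the 3 comparisons in panels of their own axis range; filled points passed an adjusted p of 0.05, black bars are list medians and dashed lines the median of all genes tested. The Il2 gene regulators in CNS against ileum (median -1.36) and the STAT5-induced genes in Ad-c-Rel against Ad-control (median 0.30) hold the most called genes.

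Of the 12 regulators of Il2, 5 were called higher in Ad-c-Rel cells and 0 lower, and the list includes Rel, the overexpressed gene itself, at 2.82. Without 1 library 3 to 4 were called higher, 3 without Ad-control replicate 1, and Nfatc2 was called lower without Ad-control replicate 2 (-0.57, edgeR adjusted p = 0.0127). Rela, the NF-κB subunit p65, had a log2 fold change of 0.24 (edgeR adjusted p = 0.0460), and its call was lost without any 1 of the 4 libraries (edgeR adjusted p of 0.0773 to 0.319), under DESeq2 (adjusted p = 0.0584) and with scaling to T cell identity genes (edgeR adjusted p = 0.289). Crem had a log2 fold change of 0.38, and the AP-1 subunit genes Fos and Jun had 0.57 and 0.40. The call of Fos was lost without Ad-c-Rel replicate 2 (edgeR adjusted p = 0.0836) and that of Jun without Ad-control replicate 1 (edgeR adjusted p = 0.0563). Of the 10 regulators of Il7r and FOXO1 targets, 3 were called lower and 1 higher. Klf2, a quiescence and migration factor, had 17.0 and 16.6 CPM in Ad-c-Rel cells, against 45.9 and 41.7 CPM in Ad-control cells. S1pr1, a receptor that directs T cells out of lymph nodes, had a log2 fold change of -0.31, whereas Ccr7 had 0.55. The call of S1pr1 was lost without either Ad-c-Rel library (edgeR adjusted p = 0.0769 and 0.0676).

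In the common gamma chain family 3 of 6 tested genes were called higher in Ad-c-Rel cells and 0 lower. Il21 had 1142 and 1199 CPM in Ad-c-Rel cells, against 648 and 720.04 CPM in Ad-control cells, a log2 fold change of 0.83. The IL-15 receptor alpha gene Il15ra had 8.76 and 8.70 CPM in Ad-c-Rel cells, against 6.74 and 5.92 CPM in Ad-control cells, and its call was lost without any 1 of the 4 libraries (edgeR adjusted p of 0.0897 to 0.166). Il4 was called with 0.853 and 1.16 CPM in Ad-c-Rel cells, against 0.195 and 0.251 CPM in Ad-control cells. That call was lost without Ad-c-Rel replicate 2 (edgeR adjusted p = 0.209) and without Ad-control replicate 1 (0.129) or replicate 2 (0.0994). DESeq2 called 1 gene of this list higher, beside 5.72% of all genes. Stat3 was the only transducer of 10 called with all 4 libraries, at 0.27, a call lost without either Ad-c-Rel library (edgeR adjusted p = 0.0636 and 0.242), without Ad-control replicate 1 (0.0678) and with scaling to T cell identity genes (0.111). Akt1 and Grb2 were called lower without Ad-c-Rel replicate 1 (-0.80 and -0.41, edgeR adjusted p = 2.62e-06 and 0.0382), and Jak3 without Ad-control replicate 2 (-0.34, edgeR adjusted p = 0.0124). Of the negative regulators, Socs3, an inhibitor of IL-6 signalling, was called lower at -0.52 and Socs1 higher at 0.29, and the call of Socs1 was lost without Ad-c-Rel replicate 2 (0.13, edgeR adjusted p = 0.592), without either Ad-control library (0.111 and 0.195) and under DESeq2 (adjusted p = 0.0734).

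Markers moved with these groups too. Of 14 T cell identity genes, 4 were called higher and 2 lower in Ad-c-Rel cells (8987 and 8892 CPM summed, against 8425 and 8663 CPM in Ad-control cells). Of 6 regulatory T cell markers, 4 were called higher, with sums of 2244 and 2100 CPM in Ad-c-Rel cells, against 1595 and 1633 CPM in Ad-control cells. Their defining factor Foxp3 was near 0, at 1.54 and 1.28 CPM in Ad-c-Rel cells, against 0.843 and 0.602 CPM in Ad-control cells. Ctla4 of the regulatory T cell list is also in the STAT5-induced list. The calls of Ikzf4 and Tnfrsf18 in this marker list were lost with scaling to T cell identity genes (edgeR adjusted p = 0.203 and 0.174). DESeq2 did not call Ikzf4 either (adjusted p = 0.106). The myeloid markers summed to 131 and 124 CPM in Ad-c-Rel cells, against 113 and 119.9 CPM in Ad-control cells, with 3 of 6 tested called higher and C1qa, C1qb and C1qc at 0. Scaling to T cell identity genes moved the median of all genes by -0.123 and left Il2, Il2ra, Il2rg and Stat5a called higher, and it called 7 of the STAT5-induced genes higher and 1 lower and all 4 IL-2-lowered genes lower, beside 19.6% of all genes called in either direction. The part of the regulatory T cell markers in these results was not tested. A fit over all 12 libraries, which takes its spread from the tissue and miR-21 libraries as well, called none of the 8 genes in this comparison. Over all genes that fit called 18 higher and 1 lower, and the cause was not tested.

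In miR-21 knockout against miR-21 control TH17(23) cells, the comparison asks what the loss of miR-21 changes. No gene of the 8 passed the test, and 0% of the 13428 genes tested did. Mir21a itself, at 0 counts in both knockout libraries against 25 and 20 in control libraries, did not pass (edgeR adjusted p = 0.1165). A gene not called in this comparison may therefore still differ. At an unadjusted p of 0.05 edgeR had 2 of the 8 genes lower, Il2ra and Il2rb, and 0 higher, beside 11.4% of all genes lower and 21.0% in either direction. DESeq2 called the same 2 genes lower, beside 6.14% of all genes called in either direction. The CPM of Il2ra, Il2rb and Il2rg lay lower in both knockout libraries than in both control libraries, as was the case for 30.6% of all genes tested.

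Il2ra had 1508 and 840 CPM in knockout cells, against 3047 and 2423 CPM in control cells, a fitted log2 fold change of -1.17 ± 0.276, or 2.26-fold lower (edgeR adjusted p = 0.136). Its 95% interval ran from -1.86 to -0.49, and DESeq2 gave -1.16 with an adjusted p of 0.000346. Il2rb had 673 and 512 CPM in knockout cells, against 940.2 and 1004 CPM in control cells, a log2 fold change of -0.66 ± 0.168 (edgeR adjusted p = 0.146), with a DESeq2 adjusted p of 0.0141. Il2rg had 456 and 421 CPM in knockout cells, against 464 and 511 CPM in control cells, and its log2 fold change was -0.09 ± 0.152 (edgeR adjusted p = 0.761). For these 3 receptor chains the groups did not overlap in CPM, but the nearest Il2rg libraries were knockout replicate 1 at 456 CPM and control replicate 1 at 464 CPM. With TMM scaling over the 12 libraries the Il2rg groups overlapped (440 and 455 in knockout cells, against 436 and 503 in control cells).

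In CPM, knockout replicate 2 was the lowest of the 4 libraries for Il2, Il2ra, Il2rb, Il2rg, Il7r and Cish. With TMM scaling over the 12 libraries this held for Il2, Il2ra, Il2rb and Il7r, and not for Il2rg and Cish. Il2 had 17.1 CPM in knockout replicate 1 and 2.08 CPM in knockout replicate 2, against 19.7 and 11.1 CPM in control cells, so its replicates spread more than its groups (log2 fold change of -0.67 ± 0.811, edgeR adjusted p = 0.651). Without knockout replicate 1, edgeR called Il2 lower at -2.71 (adjusted p = 0.0175), Il2ra at -1.53 (adjusted p = 0.0166) and Il2rb at -0.76 (adjusted p = 0.0461), beside 9.62% of all genes called in either direction. Without knockout replicate 2, the value of Il2 was 0.16 and none of the 8 genes was called. Il7r had 227 and 147 CPM in knockout cells, against 245 and 208 CPM in control cells, with overlapping ranges.

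The downstream genes did not pass the test either. Stat5a had 543 and 592 CPM in knockout cells, against 492 and 545 CPM in control cells, and Stat5b had 537 and 627 CPM in knockout cells, against 546 and 625 CPM in control cells. Both overlapped between the groups, with log2 fold changes of 0.20 ± 0.181 and 0.07 ± 0.203. Cish had 373 and 334 CPM in knockout cells, against 361 and 365 CPM in control cells, a log2 fold change of 0.03 ± 0.136. The 95% intervals allow a log2 difference for Cish between -0.31 and 0.36.

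No gene of any of the 7 pathway lists was called by edgeR in the miR-21 comparison with all 4 libraries. Without knockout replicate 1, edgeR called 5 STAT5-induced genes lower (Ctla4, Lta, Myc, Osm and Socs2), 2 IL-2-lowered genes higher (Tcf7 and Bcl6), and the Il2 regulator Crem and the receptor and cytokine genes Il4ra and Il9 lower, again beside 9.62% of all genes called. At an unadjusted p under 0.05 edgeR had 5 STAT5-induced genes lower and 3 of the IL-2-lowered genes higher, beside 11.4% of all genes lower and 9.6% higher. DESeq2 called 3 and 1 genes of these lists in the same directions, beside 3.61% of all genes lower and 2.52% higher. The STAT5-induced list had a median of -0.34 against -0.02 over all genes tested, and 9 of its 17 genes were lower in both knockout libraries than in both control libraries, 2 higher. The 4 genes known to be lowered by IL-2 had a median of 0.79, and 3 of them were higher in both knockout libraries than in both control libraries, beside 23.7% of all genes higher and 30.6% lower in this way. The common gamma chain family had a median of -0.33 over 8 genes, and the transducers, negative regulators, Il7r regulators and Il2 regulators had medians of 0.06, -0.17, -0.10 and -0.08. T cell identity genes summed to 4323 and 4145 CPM in knockout cells, against 4732 and 4750.1 CPM in control cells, and regulatory T cell markers to 863 and 852 CPM in knockout cells, against 1273 and 1540.4 CPM in control cells. Their part in the values of Il2ra and Il2rb was not tested.

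**Figure D4:**
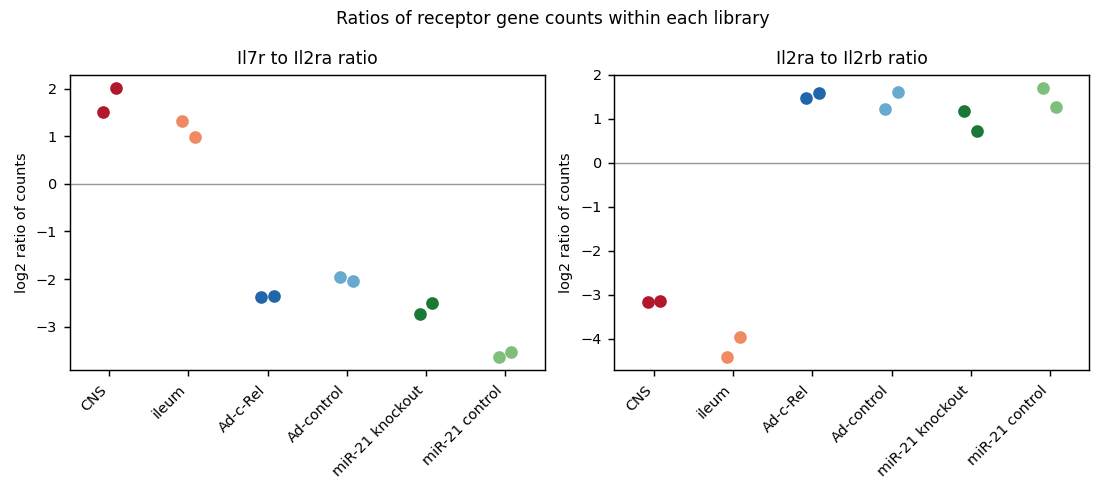
Log2 ratio of Il7r to Il2ra counts (left) and of Il2ra to Il2rb counts (right) within each of the 12 libraries (points), by group. The Il7r to Il2ra ratio was above 0 in the 4 libraries from tissue and below 0 in the 8 cultured libraries, and the Il2ra to Il2rb ratio had the opposite signs.

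Ratios of counts within a library do not depend on scaling and set the IL-7 against the IL-2 receptor alpha chain. They depend on transcript length, so they are compared between libraries and not read as a balance of molecules. The log2 ratio of Il7r to Il2ra was 1.51 and 2.01 in CNS libraries, against 1.33 and 0.99 in ileum libraries. It was -2.38 and -2.36 in Ad-c-Rel cells, against -1.96 and -2.03 in Ad-control cells, and -2.73 and -2.51 in miR-21 knockout cells, against -3.63 and -3.54 in miR-21 control cells. In each pair the groups did not overlap: the ratio was higher in CNS and in miR-21 knockout cells and lower in Ad-c-Rel cells than in the other group of the pair. An exact permutation test of 2 against 2 libraries, two-sided, gave p = 0.333 in each pair, the smallest it allows.

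The log2 ratio of Il2ra to Il2rb was -3.16 and -3.15 in CNS, against -4.41 and -3.95 in ileum. It was 1.47 and 1.58 in Ad-c-Rel cells, against 1.21 and 1.60 in Ad-control cells, which overlapped. It was 1.16 and 0.71 in miR-21 knockout cells, against 1.70 and 1.27 in miR-21 control cells, which did not overlap. The cultured cells thus had more Il2ra than Il2rb counts in all 8 libraries, and the sorted cells fewer in all 4.

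Likeness of pattern was measured over the 12 libraries as the root mean square difference of log2(CPM + 1) values, each gene centred on its own mean, among 11537 genes. Cish and Il7r, which varied least, had the nearest patterns, with Dut at 0.126 and Mbtps1 at 0.129 for Cish and Fam192a at 0.133 and Eif2b5 at 0.135 for Il7r. Il2rb was near to Usp38 at 0.181, and Il2rg was nearest to Tmed2 at 0.177 and Tm2d1 at 0.200. Stat5a was near to Trp53inp1 at 0.321, and Stat5b was nearest to Cipc at 0.239 and Cand1 at 0.251. Il2ra, with the widest pattern of its own at a root mean square of 2.07, was nearest to Obsl1 at 0.340 and Rab33a at 0.354. Il2 had no close neighbour: Nolc1 at 0.692 and Chac1 at 0.743 stood against 1.18 for Il2 itself. Points within each pair of groups share depth, kind of source (sorted or cultured) and, where the labels name it, kit, so these values are a description.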

How the data were processed

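The authors deposited RNA-seq as raw counts, 1 table of 24862 gene symbols for each of 12 libraries. The submitters' processing notes list HTSeq 0.11.0, TopHat2 2.1.0, Trim Galore 0.4.4, CASAVA 1.4, HOMER, SAMtools, Bowtie2, DESeq2 and build mm10, without saying what each did. The annotation and strand setting were not given in the sources used here. Summary lines that name no gene held 14.7% to 26.1% of each table and stayed out of totals and tests. The 8 ATAC-seq samples were not used here.

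Groups came from the labels. Levels are CPM over all gene counts. Each comparison was fitted to the 4 libraries it concerns by the two-sided quasi-likelihood F test of edgeR 4.0.16 (R 4.3.3) after filterByExpr and TMM scaling, with Benjamini-Hochberg adjustment over all genes tested and a threshold of 0.05. The SE is the log2 fold change divided by the square root of F, and 95% intervals use its moderated degrees of freedom. DESeq2 1.42.0, RLE scaling, library size only, scaling to T cell identity genes, no filter, a replicate block, a fit over all 12 libraries and leaving out each library were alternatives. The code was tested on simulated data. Fold changes are fitted under TMM scaling and can differ slightly from ratios of CPM. With 2 libraries per group the depth sets counting error, but the spread between libraries limits the precision. No replicates were merged, since chi-square statistics of their counts were 4.60 to 67.8 per degree of freedom.

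The named genes are the 8 of the axis, Rel and Mir21a, up to 4 called genes by smallest p from each pathway list (Fos in the tissue comparison, Foxp3 as a marker and the markers at 0 were added as exceptions to it), and the 2 nearest genes in pattern. The 8 genes and all lists were chosen with earlier results of these data known. Some genes that met the rule for named genes are not reported here.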

Additional observations from a re-analysis of the deposited data

How the results depend on the processing

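Of the calls on the 8 genes, Il2rb, Stat5a and Stat5b lower in CNS held under every alternative run. Il2, Il2rg and Stat5a higher in Ad-c-Rel cells held under all but the fit over all 12 libraries, which called 0 of the 8 genes there. Scaling to T cell identity genes gave 1 gene of the 8 called higher in CNS (Il7r). In the miR-21 comparison DESeq2 called 2 of the 8 genes lower, and leaving out 1 library gave 0 to 3. Where 1 library of a group was left, the lone library was assumed to vary like the others.

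Over all genes in CNS against ileum, edgeR called 482 higher and 681 lower. DESeq2 called 1738 and 1813, no filter 1113 and 1300, the fit over 12 libraries 1988 and 2012, and T cell scaling 1084 and 345. Without 1 library, 319 to 1285 were called higher. In Ad-c-Rel cells 956 were called higher and 717 lower. DESeq2 called 450 lower, the fit over 12 libraries 18 higher and 1 lower, and T cell scaling 543 higher and 1755 lower. Without 1 library, 537 to 784 were called higher and 389 to 597 lower. In the miR-21 comparison 0 were called. DESeq2 called 339 higher and 485 lower, no filter 9 and 31, the fit over 12 libraries 0 and 1, and T cell scaling 2 and 1. Without 1 library, 1 to 666 were called higher and 1 to 661 lower, with the highest counts without knockout replicate 1. The causes were not tested.

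Values that changed sign were all uncalled in the main edgeR fit to the 4 libraries of a comparison. Il2 in miR-21 knockout cells was called lower in some alternative fits, among them the replicate block given below. In CNS, library size only gave Il2rg 0.10 and Cish 0.12. T cell scaling gave Il2ra 0.13, Il2rg 0.43 and Cish 0.45. Without 1 library Cish ran from -0.36 to 0.0798. In Ad-c-Rel cells Cish was -0.0391 with library size only, -0.11 with T cell scaling and -0.0670 to 0.11 without 1 library, and Il7r ran from -0.089 to 0.0053. In miR-21 knockout cells, library size only gave Stat5b -0.0088 and Cish -0.0377, and T cell scaling gave Il2rg 0.011. Without 1 library Il2 ran from -2.71 to 0.16, Il7r from -0.45 to 0.0036, Stat5b from -0.13 to 0.27, Cish from -0.0102 to 0.0839 and Il2rg from -0.18 to 0.0340.

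Replicate numbers are shared across groups, but nothing in the labels pairs the libraries. Deviations of the replicate 1 libraries from their group means were correlated across genes between the groups of a comparison. The correlation was 0.0729 in the tissue comparison, 0.107 in the Ad comparison and 0.659 in the miR-21 comparison. These values are over 12252, 11641 and 13296 genes. The replicate 2 libraries deviate by the same amounts with the opposite sign, so they add nothing further. A fit with the replicate number as a block called 1488 genes higher and 1314 lower in Ad-c-Rel cells, and 2287 higher and 2520 lower in miR-21 knockout cells. Under the block 3 of the 8 genes were called lower in miR-21 knockout cells, Il2 at -1.04, Il2ra at -1.20 and Il2rb at -0.66 (edgeR adjusted p = 0.0157, 8.69e-05 and 0.00171), and in Ad-c-Rel cells Il2rb and Stat5b were called higher (edgeR adjusted p = 0.00979 and 0.0204).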

Other observations

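The remaining marker lists gave these values. In CNS cells the natural killer and innate lymphoid markers summed to 81.3 and 56.3 CPM, against 159 and 89.2 CPM in ileum cells, with 1 of 4 tested called lower (Kit) and Klra8 at 0. CD8 T cell markers summed to 14.0 and 20.3 CPM in CNS cells, against 4.92 and 4.64 CPM in ileum cells, and dendritic markers to 76.4 and 83.1 CPM in CNS cells, against 81.5 and 90.3 CPM in ileum cells, with 0 called in either list. Epithelial markers were at 8.20 and 0 CPM in CNS cells, against 5.78 and 0 CPM in ileum cells, with Krt8 and Krt20 at 0.

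In Ad-c-Rel cells Kit, the receptor of stem cell factor and a marker of innate lymphoid cells, had 37.9 and 40.6 CPM, against 14.4 and 13.4 CPM in Ad-control cells, and was called higher at a log2 fold change of 1.56. Klrb1c and Klra8 of the same list were at 0. Tcf7, which IL-2 is known to lower, had 352 and 326 CPM in miR-21 knockout cells, against 164 and 176 CPM in miR-21 control cells, a log2 fold change of 1.06 that did not pass the test (edgeR adjusted p = 0.107). Ctla4, a STAT5-induced gene, had 274 and 292 CPM in miR-21 knockout cells, against 605 and 732 CPM in miR-21 control cells, a log2 fold change of -1.17 (edgeR adjusted p = 0.124). Il9, a cytokine gene that STAT5 is known to induce, had 1.24 and 0.244 CPM in miR-21 knockout cells, against 5.30 and 2.86 CPM in miR-21 control cells (edgeR adjusted p = 0.158). DESeq2 called all 3 of Tcf7, Ctla4 and Il9 (adjusted p = 7.55e-07, 1.55e-05 and 0.0087), and edgeR called all 3 without knockout replicate 1 (adjusted p = 0.0174, 0.0312 and 0.0205). These genes were chosen after their values were seen.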
